A study of Mus musculus with 6 samples.

Results

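The genes described here are 9 members of the AKT branch of the PI3K signaling pathway: the kinases Akt1 and Akt2, the upstream kinase Pdpk1, the mTORC2 subunit Rictor, the phosphatase Phlpp1, and the AKT substrates Gsk3a, Gsk3b, Foxo1 and Foxo3. They were taken by symbol from a table of 46095 genes, in which all 9 were found, and all 9 passed the filter on low counts that left 14120 genes for testing. The RNA came from BV2 cells, a mouse microglia line that was immortalized, in 3 libraries of untreated cells (CON group) and 3 libraries of cells given recombinant sTREM-1 protein, the soluble form of the receptor TREM-1, at 1 μg/mL for 6 h. Neither group carried a named transgene or deletion, no vehicle control was named, and nothing in the labels says whether the 3 libraries of a group came from separate cultures, so the p-values measure only the spread between these libraries. In the study the RNA-seq served to learn how sTREM-1 acts on the functions of microglia. The PI3K-AKT pathway was examined separately there, introduced from earlier work on TREM-1 and related proteins in brain injury. By quantitative PCR of BV2 cells, the paper reported less AKT mRNA after sTREM-1 and unchanged PI3K mRNA. Phosphorylated AKT and PI3K proteins were reported as increased. The paper does not name the AKT isoform measured by PCR. Its direction is opposite to that of Akt1 and Akt2 below, and the cause of this difference was not tested.

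AKT is a serine/threonine kinase that is drawn to the plasma membrane by the lipid PIP3, the product of class I PI3K. There PDK1 (encoded by Pdpk1) phosphorylates its activation loop and mTORC2, of which Rictor is a defining subunit, phosphorylates its tail, while PHLPP phosphatases remove the tail phosphate. Active AKT phosphorylates GSK3 and FOXO proteins, which inhibits the first and keeps the second out of the nucleus, and in microglia the pathway is known for roles in survival, metabolism and phagocytosis. RNA counts do not measure phosphorylation, lipids or the place of a protein in the cell, so the values below describe only how much transcript of each component was present.

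The libraries held between 40070633 and 45877107 counts, of which the 9 members together took 35351 to 40925. The lowest count of any member in any library was 1096. No library was a copy of another: the mean chi-square per gene was 3.47 to 5.02 for pairs within a group, above sampling noise, and 20.3 to 22.3 for pairs across groups. Of 10 microglia and macrophage markers, 9 were tested and the defining marker Aif1 was at 0 counts in all 6 libraries. Csf1r, Itgam, Cd68, Ptprc, Spi1, Trem2 and Tyrobp lay between 116 and 605 CPM (the usual unit of counts relative to the TMM-scaled library size) in the CON group, whereas the homeostatic markers Cx3cr1 and P2ry12 had only 0.944 and 0.668 CPM. The summed level of the 10 markers was 2390 to 2420 CPM in the CON group and 2620 to 2710 CPM after sTREM-1, and 4 of them rose and 0 fell (30.5% of all tested genes were called). Most of the difference in the sum came from Csf1r, with 520.7 CPM in the CON group and 752.9 CPM after sTREM-1, whereas Cd68 had 605 and 589 CPM and Tyrobp 300.4 and 293 CPM. The 7 neuron markers summed to at most 0.341 CPM in any library, with Rbfox3 at 0, the 5 astrocyte markers to at most 1.26 CPM, with Aqp4 and Aldh1l1 at 0, the 5 oligodendrocyte markers to at most 7.94 CPM, with Mog at 0, and the 5 fibroblast markers to at most 0.512 CPM, with Col1a2, Dcn and Lum at 0. Of these lists 0 neuron, 1 astrocyte, 2 oligodendrocyte and 1 fibroblast markers passed the filter on low counts, and the test called none of them. In bulk RNA, fewer cells that express a gene cannot be told apart from less of its RNA per cell.

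The members are tied to each other by short phosphorylation sites, whose coding sequences are shown because they define which member acts on which. They were read 5′ to 3′ from GENCODE M21 transcripts (build GRCm38), and the codon of the phosphorylated residue is in capitals. The first 2 are the activation loop threonine that PDK1 phosphorylates, at codon 308 of 480 of Akt1 (exon 10 of 14, chr12:112657089-112657118, minus strand) and at codon 309 of 481 of Akt2 (exon 10 of 14, chr7:27636117-27636146, plus strand). The next 2 are the tail serine that mTORC2 phosphorylates, at codon 473 of Akt1 (exon 14, chr12:112654710-112654739) and at codon 474 of Akt2 (exon 14, chr7:27638100-27638129).
Akt1, PDK1 site: ggtgccactatgaagACAttctgcggaacg
Akt2, PDK1 site: ggagccaccatgaaaACCttctgtggtacc
Akt1, mTORC2 site: cacttcccccagttcTCCtactcagccagt
Akt2, mTORC2 site: cacttcccccagttcTCCtactcagccagc

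Downstream, AKT prefers a serine or threonine that follows an arginine, any residue, a second arginine and any 2 residues. A search of the translated coding sequences for this pattern found 3 matches in Foxo1, 3 in Foxo3 and 1 each in Gsk3a and Gsk3b, and the windows below begin with the codon of the first arginine. In Foxo1 they were threonine codon 24 in exon 1 (chr3:52268856-52268885, plus strand) and serine codons 253 (chr3:52345159-52345188) and 316 (chr3:52345348-52345377) in exon 2. In Foxo3, which lies on the minus strand of chromosome 10, they were threonine codon 32 (chr10:42275326-42275355) and serine codons 252 (chr10:42197752-42197781) and 314 (chr10:42197566-42197595). In Gsk3a the match was serine codon 21 in exon 1 (chr7:25237586-25237615, minus strand) and in Gsk3b serine codon 9 in exon 1 (chr16:38090535-38090564, plus strand), the residues through which AKT is known to inhibit these kinases.
Foxo1, codon 24: cggcagcgctcctgtACCtggccgctgccc
Foxo3, codon 32: cggccacgctcctgtACGtggcccctgcag
Foxo1, codon 253: cggagaagagctgcgTCCatggacaacaac
Foxo3, codon 252: cggcggcgtgcggtcTCCatggacaacagc
Foxo1, codon 316: cgtcctcgaaccagcTCAaatgctagtacc
Foxo3, codon 314: cgctcgcgcaccaatTCCaacgccagcacc
Gsk3a, codon 21: cgggcgcggaccagcTCGttcgcggagcca
Gsk3b, codon 9: cgaccgagaaccaccTCCtttgcggagagc

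Compared with the CON group, Akt1 and Akt2 were higher after sTREM-1 and Gsk3b and Foxo1 were lower, while Pdpk1, Rictor, Phlpp1, Gsk3a and Foxo3 did not pass the test. Thus 4 of the 9 members were called at an adjusted p under 0.05 in edgeR's quasi-likelihood test, 2 in each direction, against 30.5% of all tested genes (16.5% higher and 14.1% lower). The changes were small. Akt2, the kinase isoform best known for insulin-driven glucose uptake, had the largest fold change, 1.28, and was the one member both called and changed by 1.2-fold or more, as were 10.7% of all tested genes. The median log2 fold change of the members was -0.03, against -0.00 over all tested genes, and the median of their absolute log2 fold changes was 0.08, against 0.13. For 5 of the 9 members, namely Akt1, Akt2, Pdpk1, Gsk3b and Foxo1, the groups did not overlap, as for 40.7% of all tested genes. The shares of members called and separated were thus of the order of those in the whole table, and the members did not move in 1 direction.

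**Figure D1:**
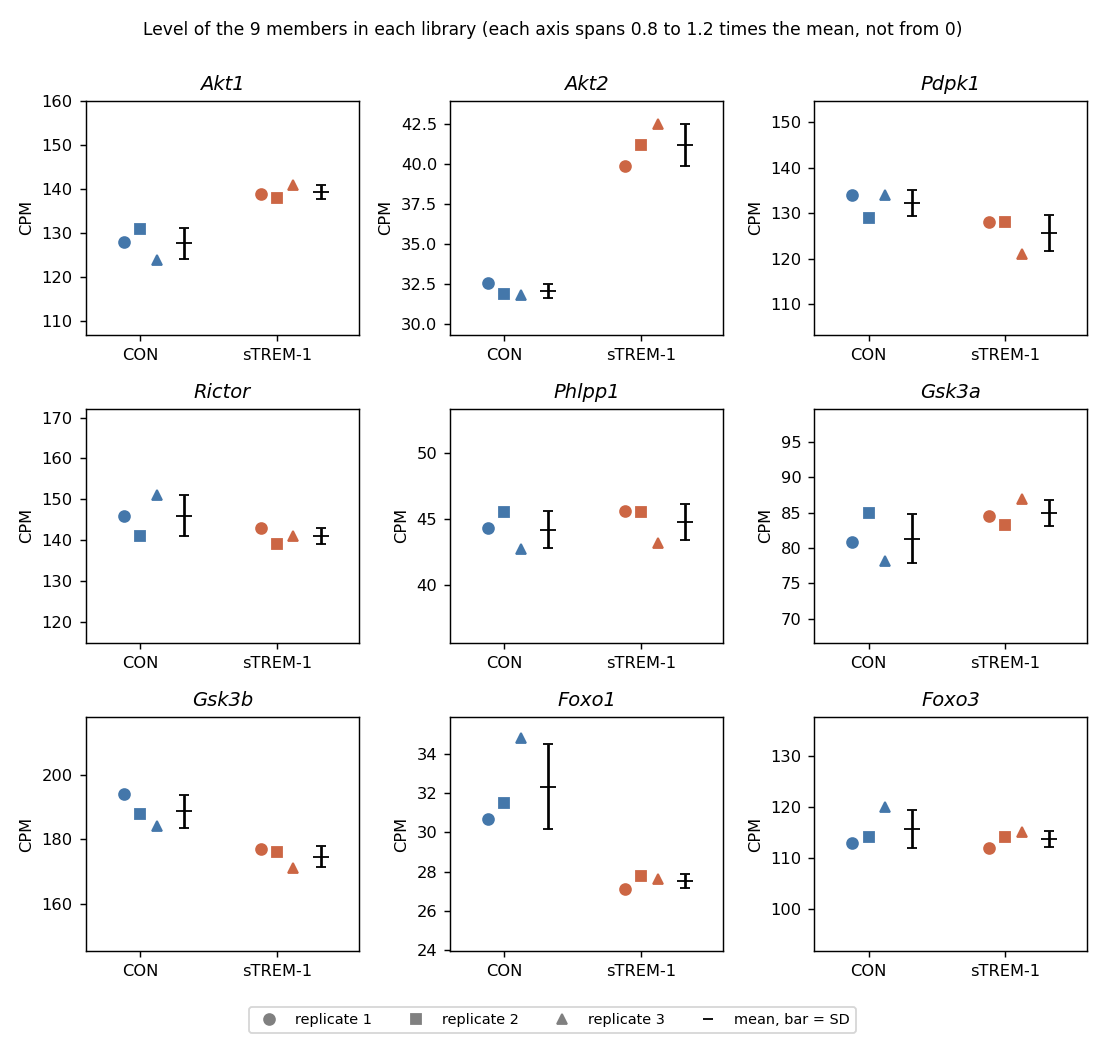
Levels of the 9 members in CPM (vertical axes, each spanning the same relative range and not starting at 0) in the 3 CON and 3 sTREM-1 libraries. Points are libraries, shaped by replicate number, and the bars give the mean and SD (n = 3). The sTREM-1 libraries lie above every CON library for Akt1 and Akt2 and below every CON library for Pdpk1, Gsk3b and Foxo1.

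Among the kinases, Akt1 encodes the widely expressed isoform linked to growth and survival. It had 128, 131 and 124 CPM in the CON libraries and 139, 138 and 141 CPM in the sTREM-1 libraries. Every sTREM-1 library was above every CON library. The mean rose from 128 ± 3.87 to 139.5 ± 1.82 CPM (SD, n = 3 each), with a log2 fold change of 0.13 ± 0.03 (SE, adjusted p = 0.0016 by the quasi-likelihood test in edgeR). Akt1 lies on the minus strand of chromosome 12 of GRCm38 from 112653821 to 112674884.

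Akt2 had 32.6, 31.9 and 31.8 CPM in the CON libraries and 39.9, 41.2 and 42.5 CPM after sTREM-1. The groups were well separated, since the gap between them was larger than the whole range within either group. The mean rose from 32.1 ± 0.427 to 41.2 ± 1.30 CPM (SD, n = 3 each), with a log2 fold change of 0.36 ± 0.05 (SE, adjusted p = 6.7e-07 by the quasi-likelihood test in edgeR). By its p-value it ranked 587 among all tested genes. Akt2 lies on the plus strand of chromosome 7 from 27591552 to 27640826, and a pseudogene of it, Akt2-ps, which could share reads with it, held 67, 88 and 74 counts without sTREM-1 and 103, 90 and 73 with it, against at least 1297 counts of Akt2 in every library.

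Levels of different genes were compared as CPM per kilobase of annotated exon. In the CON group Akt1 had 31.2 ± 0.944 CPM per kilobase and Akt2 4.50 ± 0.0598 (SD, n = 3 each). After sTREM-1 the levels were 34.1 ± 0.445 and 5.78 ± 0.182 CPM per kilobase. Thus Akt2, with the larger estimated fold change, was the less abundant of both kinases in each group.

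The changes of Akt1 and Akt2 were compared through their ratio. The ratio of Akt2 to Akt1 counts was 0.254, 0.243 and 0.257 in the CON libraries and 0.286, 0.299 and 0.301 in the sTREM-1 libraries. It was higher in each sTREM-1 library than in any CON library, by 1.18-fold or 0.23 on the log2 scale (two-sided p = 0.1 in an exact permutation test, the smallest possible, and adjusted p = 0.125 over 5 ratios). With 3 libraries against 3, this permutation test cannot give a p below 0.1, and the difference between the changes of both genes did not pass it. Since both genes are counted in the same library, this ratio does not depend on how libraries were scaled.

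The promoters of the genes that moved most are shown because Akt1 and Akt2 moved together and Foxo1 moved against them. The RefSeq table of GRCm38.p6 held windows of 300 bases, from 250 before to 50 after an annotated start, for all 9 members. Capitals mark the FOXO element GTAAACA, the GC box GGGCGG and the CCAAT box, each on either strand (on the other strand the FOXO element reads TGTTTAC, the GC box reads CCGCCC and the CCAAT box reads ATTGG). These motifs do not overlap one another in the windows shown, though copies of the GC box can overlap each other. Of 32851 windows in the table, 3.65% held the FOXO element, 35.7% the GC box and 37.4% the CCAAT box. Akt1 has 2 windows in the table, and the upstream one, at chr12:112674835-112675134 on the minus strand, was the only one of the members' 14 windows with a FOXO element. The other Akt1 window, at chr12:112674227-112674526, held 5 GC boxes and no FOXO element and is not printed. The window of Akt2 is the most upstream of 4, at chr7:27591302-27591601 on the plus strand, and holds 1 GC box. The window of Foxo1, at chr3:52268087-52268386 on the plus strand, holds 5 GC boxes and 3 CCAAT boxes. A match says only that these letters stand in the window.
Akt1: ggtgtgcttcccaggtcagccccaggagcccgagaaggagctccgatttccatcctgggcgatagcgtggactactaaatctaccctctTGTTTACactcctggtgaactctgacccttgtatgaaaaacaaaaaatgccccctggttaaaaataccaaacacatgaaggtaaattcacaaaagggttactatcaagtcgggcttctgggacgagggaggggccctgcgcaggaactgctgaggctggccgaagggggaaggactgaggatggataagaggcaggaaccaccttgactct
Akt2: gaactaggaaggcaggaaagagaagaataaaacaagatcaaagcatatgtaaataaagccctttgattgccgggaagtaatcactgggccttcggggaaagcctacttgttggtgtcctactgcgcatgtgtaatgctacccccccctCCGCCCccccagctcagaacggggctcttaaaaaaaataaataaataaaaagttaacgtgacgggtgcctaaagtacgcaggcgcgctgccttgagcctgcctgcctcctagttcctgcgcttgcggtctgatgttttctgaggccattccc
Foxo1: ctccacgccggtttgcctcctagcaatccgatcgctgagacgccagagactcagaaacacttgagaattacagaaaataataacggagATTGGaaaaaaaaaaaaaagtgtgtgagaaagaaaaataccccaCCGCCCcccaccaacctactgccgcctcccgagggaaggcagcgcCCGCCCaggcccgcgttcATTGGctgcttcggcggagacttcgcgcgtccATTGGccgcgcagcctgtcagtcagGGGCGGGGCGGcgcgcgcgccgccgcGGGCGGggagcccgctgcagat

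Next, the upstream regulators were examined. Pdpk1, which encodes PDK1, had 134, 129 and 134 CPM in the CON libraries and 128, 128 and 121 CPM after sTREM-1. The groups did not overlap, but the closest libraries differed by less than the spread within either group. Its log2 fold change was -0.08 (95% interval -0.14 to -0.01), and the edgeR quasi-likelihood adjusted p of 0.056 did not pass the threshold. Pdpk1 was the only member whose call depended on the fit, and it passed in 8 of 13 alternative fits, in each with a log2 fold change between -0.10 and -0.08 (adjusted p from 0.015 to 0.05). Among them were the fits without CON replicate 2 (adjusted p = 0.03) and without sTREM-1 replicate 2 (adjusted p = 0.049). It lies on the minus strand of chromosome 17 from 24073680 to 24150924.

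Rictor had 146, 141 and 151 CPM in the CON libraries and 143, 139 and 141 CPM after sTREM-1, so that the groups overlapped. Its log2 fold change was -0.05 (95% interval -0.11 to 0.01, edgeR quasi-likelihood adjusted p = 0.24). Phlpp1 had 44.3, 45.5 and 42.7 CPM in the CON libraries and 45.6, 45.5 and 43.2 CPM after sTREM-1. These were nearly the same range, with a log2 fold change of 0.02 (95% interval -0.07 to 0.11, edgeR quasi-likelihood adjusted p = 0.79) whose sign turned with upper quartile scaling and without CON replicate 3. The ratio of Phlpp1 to Rictor, a phosphatase and a kinase subunit that act on the same AKT residue, was 0.303 ± 0.0198 in the CON group and 0.318 ± 0.0109 after sTREM-1 (SD, n = 3 each), and the groups overlapped (two-sided p = 0.4 in an exact permutation test, also 0.4 after adjustment).

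Phlpp2, the paralog of Phlpp1, is not a member and gave a different picture. It had 40.3, 40.7 and 45.0 CPM in the CON libraries and 33.2, 34.7 and 33.2 CPM after sTREM-1. All sTREM-1 libraries lay below the CON libraries, with a log2 fold change of -0.32 ± 0.05 (SE, adjusted p = 1.2e-05 by the quasi-likelihood test in edgeR). The difference between the changes of Phlpp1 and Phlpp2 was not tested.

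**Figure D2:**
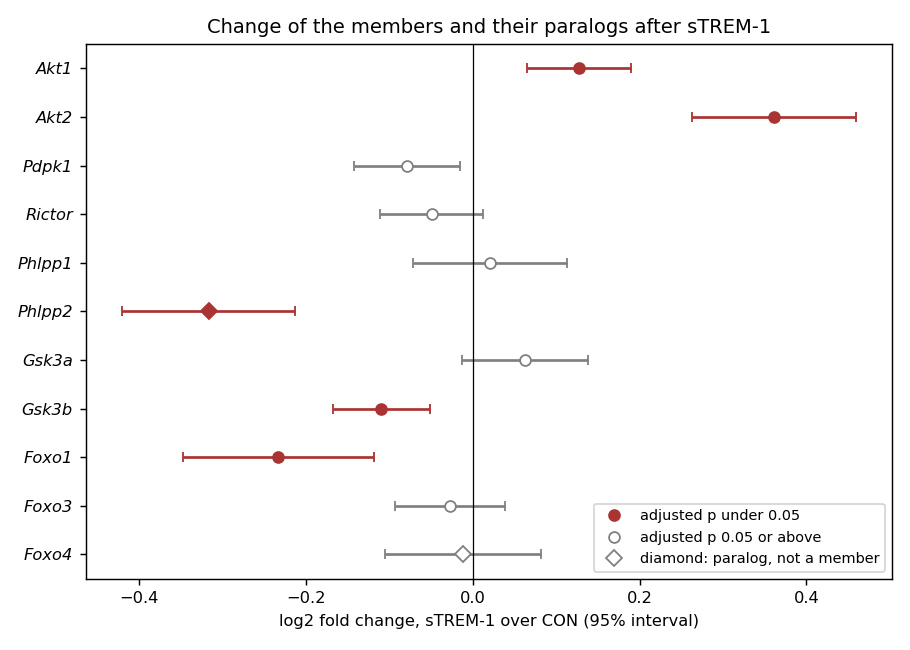
Log2 fold change after sTREM-1 with its 95% interval (horizontal axis) for the 9 members (circles) and the paralogs Phlpp2 and Foxo4 (diamonds), from edgeR's quasi-likelihood fit over 14120 genes. Filled red symbols passed an adjusted p under 0.05. Akt2 stands highest at 0.36, and Phlpp2 and Foxo1 lowest at -0.32 and -0.23.

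Of the AKT substrates, Gsk3b and Foxo1 were called, and Gsk3a and Foxo3 were not. Gsk3b encodes the beta isoform of glycogen synthase kinase 3, whose isoforms phosphorylate beta-catenin and glycogen synthase. It had 194, 188 and 184 CPM in the CON libraries and 177, 176 and 171 CPM after sTREM-1. The lowest CON library was above the highest sTREM-1 library. The mean fell from 189 ± 5.36 to 175 ± 3.13 CPM (SD, n = 3 each), with a log2 fold change of -0.11 ± 0.03 (SE, adjusted p = 0.0035 by the quasi-likelihood test in edgeR). Gsk3b lies on the plus strand of chromosome 16 from 38089001 to 38246084.

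Gsk3a, which encodes the other isoform, had 80.8, 85.0 and 78.2 CPM in the CON libraries and 84.6, 83.3 and 86.9 CPM after sTREM-1. The groups overlapped, and the log2 fold change of 0.06 (95% interval -0.01 to 0.14) did not pass the test (edgeR quasi-likelihood adjusted p = 0.22). An overlapping gene on the opposite strand, 9130221H12Rik, had 228 to 342 counts in the CON libraries and 267 to 295 after sTREM-1, against at least 3193 counts of Gsk3a. The ratio of Gsk3a to Gsk3b was 0.416, 0.451 and 0.426 in the CON libraries and 0.478, 0.472 and 0.508 after sTREM-1. It was higher in every sTREM-1 library, by 1.13-fold (two-sided p = 0.1 in an exact permutation test, the smallest possible, adjusted p = 0.125 over 5 ratios). Per kilobase of exon, Gsk3a was the more abundant isoform, with 28.0 ± 1.17 CPM per kilobase against 19.2 ± 0.545 for Gsk3b in the CON group (SD, n = 3 each), although it had fewer counts. The sum of both was 47.2 ± 1.44 CPM per kilobase in the CON group and 47.1 ± 0.363 after sTREM-1 (SD, n = 3 each; two-sided p = 0.9 in an exact permutation test).

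Foxo1 encodes a forkhead transcription factor that induces genes of stress resistance, cell cycle arrest and gluconeogenesis when AKT is inactive. It had 30.7, 31.5 and 34.8 CPM in the CON libraries and 27.1, 27.8 and 27.6 CPM after sTREM-1. CON replicate 3 stood above the other libraries, yet the other 2 CON libraries also lay above all sTREM-1 libraries. The mean fell from 32.4 ± 2.18 to 27.5 ± 0.340 CPM (SD, n = 3 each), with a log2 fold change of -0.23 ± 0.06 (SE, adjusted p = 0.0017 by the quasi-likelihood test in edgeR). Without CON replicate 3 the log2 fold change was -0.18, and the call was kept in each fit that left out 1 library. Foxo1 lies on the plus strand of chromosome 3 from 52268336 to 52353221.

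Foxo3, a close relative that binds the same DNA element, had 113, 114 and 120 CPM in the CON libraries and 112, 114 and 115 CPM after sTREM-1. The groups overlapped, with a log2 fold change of -0.03 (95% interval -0.09 to 0.04, edgeR quasi-likelihood adjusted p = 0.58). Foxo4, not a member, had 46.4 ± 2.22 CPM in the CON group and 46.0 ± 1.35 CPM after sTREM-1 (SD, n = 3 each; edgeR quasi-likelihood adjusted p = 0.89), and Foxo6 had at most 1 count in any library. The ratio of Foxo1 to Foxo3 was 0.271, 0.277 and 0.290 in the CON libraries and 0.243, 0.244 and 0.240 after sTREM-1. It was lower in every sTREM-1 library, at 0.868 times the CON level (two-sided p = 0.1 in an exact permutation test, the smallest possible, adjusted p = 0.125). The ratio of the substrate Foxo1 to the kinase Akt1 was 0.254 ± 0.0242 in the CON group and 0.197 ± 0.00394 after sTREM-1 (SD, n = 3 each), lower in every sTREM-1 library, at 0.780 times the CON level (two-sided p = 0.1 in an exact permutation test, adjusted p = 0.125).

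Foxo1 was the least abundant of the 9 members per kilobase of exon, with 3.73 ± 0.252 CPM per kilobase in the CON group (SD, n = 3), against 15.3 ± 0.524 for Foxo3 and 13.3 ± 0.636 for Foxo4. The sum of these 3 genes was 32.3 ± 1.39 CPM per kilobase in the CON group and 31.4 ± 0.338 after sTREM-1 (SD, n = 3 each, two-sided p = 0.3 in an exact permutation test, adjusted p = 0.45 over 3 sums). Foxo1 made up 11.5% ± 0.280 of the summed Foxo1, Foxo3 and Foxo4 transcripts in the CON group and 10.1% ± 0.188 after sTREM-1 (SD, n = 3 each). In descending order the members stood at 31.2 (Akt1), 28.0 (Gsk3a), 19.2 (Gsk3b), 15.3 (Foxo3), 12.1 (Pdpk1), 8.62 (Rictor), 6.54 (Phlpp1), 4.50 (Akt2) and 3.73 (Foxo1) CPM per kilobase in the CON group, and the SDs of neighbours in this order did not overlap. The level of Akt1 was above that of 87.3% of the 12813 tested genes with an annotated length, and that of Foxo1 above 36.5%. With the length of the longest transcript in place of all exons, Pdpk1 (18.5 CPM per kilobase) stood above Foxo3 (16.9), Phlpp1 and Akt2 came close to each other at 7.10 and 7.06, and the order of the members was otherwise the same.

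**Figure D3:**
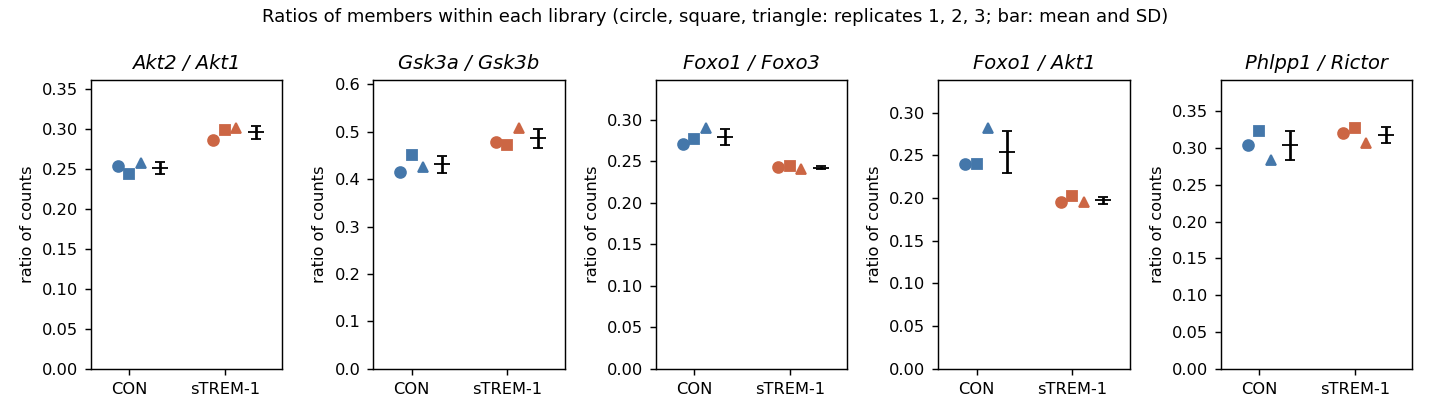
Ratio of the counts of 2 members within each library (vertical axes, from 0) for the 3 CON and 3 sTREM-1 libraries, with the mean and SD (n = 3). The sTREM-1 libraries lie above the CON libraries for Akt2 / Akt1 and Gsk3a / Gsk3b, below them for Foxo1 / Foxo3 and Foxo1 / Akt1, and overlap them for Phlpp1 / Rictor.

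The other genes of the pathway were then described from lists, beside the background of 30.5% called and a median log2 fold change of -0.00. Of 10 class I PI3K genes, 9 of subunits of the enzymes that make PIP3 and 1 of the adaptor Pik3ap1, 5 rose and 1 fell, with Pik3ap1 among those that rose (log2 fold change 0.09, edgeR quasi-likelihood adjusted p = 0.004), and the median log2 fold change was 0.18. The genes that rose included those of PI3K gamma, the form coupled to G protein receptors in myeloid cells. Its catalytic subunit Pik3cg rose from 90.7 to 113 CPM and its regulatory subunits Pik3r5 and Pik3r6 from 134.5 to 165 and from 13.8 to 17.2 CPM, with log2 fold changes of 0.32, 0.29 and 0.33 (edgeR quasi-likelihood adjusted p = 1.1e-08, 1.1e-08 and 0.0013). The regulatory subunit Pik3r2 rose by 1.24-fold, while Pik3r1, the gene of the p85 alpha regulatory subunit, fell from 59.0 to 52.7 CPM.

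Of 6 phosphatases that remove phosphates from PIP3 or its products, 3 rose and 1 fell, and the median log2 fold change was 0.15. Inpp5d (SHIP1) and Inppl1 (SHIP2), which remove a phosphate from PIP3, rose by 0.12 and 0.22 on the log2 scale (edgeR quasi-likelihood adjusted p = 0.007 and 3.2e-06). Inpp4b fell from 36.6 to 26.5 CPM, a log2 fold change of -0.47 (edgeR quasi-likelihood adjusted p = 8.5e-08). The call of Inpp5d was lost without sTREM-1 replicate 3 (adjusted p = 0.091). Genes that make PIP3 and genes that remove it were thus both among those that rose.

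Of 7 mTORC2 subunits, Rictor included, 2 rose and 0 fell. Mapkap1, the gene of the SIN1 subunit, rose by 1.12-fold (edgeR quasi-likelihood adjusted p = 0.0075), a call lost without CON replicate 1 (adjusted p = 0.055) or without sTREM-1 replicate 3 (adjusted p = 0.052). Deptor, which encodes an inhibitor of both mTOR complexes, rose by 1.31-fold (adjusted p = 0.00036 in the same test). The kinase gene Mtor had 39.3 ± 1.10 CPM in the CON group and 39.5 ± 3.02 CPM after sTREM-1 (SD, n = 3 each).

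Among 12 AKT phosphatase genes, Phlpp1 included, 3 rose and 3 fell. The regulatory B56 subunits of protein phosphatase 2A Ppp2r5a, Ppp2r5d and Ppp2r5c rose, with log2 fold changes of 0.28, 0.30 and 0.10, whereas Phlpp2, the B55 subunit Ppp2r2a and the catalytic subunit Ppp2cb fell, with log2 fold changes of -0.32, -0.20 and -0.12. Ppp2r5c lost its call without CON replicate 1 (adjusted p = 0.067), and Ppp2cb without CON replicate 1 or 2 or sTREM-1 replicate 1 or 2 (adjusted p from 0.054 to 0.19). Of 5 tested AKT binding partners 3 rose and 1 fell. The chaperones Hsp90ab1, Hsp90aa1 and Cdc37, which stabilize AKT and many other kinases, rose by 1.24-, 1.17- and 1.17-fold, and Them4, whose product binds AKT and restrains it, fell to 0.810 times the CON level.

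Of 10 tested AGC kinases other than AKT, the family that PDK1 activates, 3 rose and 2 fell. Prkca rose from 6.16 to 9.36 CPM (log2 fold change 0.60, edgeR quasi-likelihood adjusted p = 4.8e-05) and Sgk3 by 1.21-fold, while Sgk1 and Pkn2 fell to 0.907 and 0.939 times the CON level. The third gene called higher was Rps6kb2, whose counts were 32, 27 and 37 without sTREM-1 and 19, 29 and 210 with it. Its call rested on sTREM-1 replicate 3, without which the log2 fold change was -0.52 (adjusted p = 0.43). The call of Rps6kb2 was also lost without CON replicate 1, 2 or 3 (edgeR quasi-likelihood adjusted p from 0.071 to 0.093) and with DESeq2 (adjusted p = 0.32). With the replicate number as a block, its log2 fold change was 0.79 and did not pass (edgeR quasi-likelihood adjusted p = 0.099). Sgk1 lost its call without CON replicate 3 (adjusted p = 0.055), and Pkn2 without CON replicate 2 or 3 or sTREM-1 replicate 2 or 3 (adjusted p from 0.052 to 0.12) and with a correction for GC content and length (adjusted p = 0.11). The calls in this list numbered 2 without CON replicate 3 and 3 without CON replicate 2 or without sTREM-1 replicate 3.

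Downstream, 6 of 16 AKT substrates outside the FOXO and GSK3 families rose and 2 fell, with a median log2 fold change of 0.07. Acly, the enzyme that makes cytosolic acetyl-CoA from citrate, rose from 164 to 210 CPM, and Cdkn1a and Tbc1d1 rose by 1.15- and 1.14-fold. Map3k5, which encodes the stress kinase ASK1, fell from 28.7 to 20.7 CPM (log2 fold change -0.47, edgeR quasi-likelihood adjusted p = 1.5e-06), and Chuk, the gene of the kinase IKK alpha, fell to 0.884 times the CON level. Of 12 tested GSK3 partners and substrates 4 rose and 2 fell. Gys1, the glycogen synthase of most tissues, rose from 121 to 169 CPM (log2 fold change 0.48, adjusted p = 1.2e-13), and Ccnd1, the gene of cyclin D1, fell from 127 to 97.3 CPM (log2 fold change -0.38, adjusted p = 1.1e-10 in the same test). Ctnnb1, the gene of beta-catenin, fell to 0.943 times the CON level, and the rises of Mcl1, Eif2b5 and Axin1 were at most 1.09-fold, and their calls, but not their direction, were lost with upper quartile scaling. The call of Mcl1 was also lost without CON replicate 1 or 3 or sTREM-1 replicate 2, that of Eif2b5 without CON replicate 3 or sTREM-1 replicate 1 or 3, and that of Axin1 without CON replicate 2 or sTREM-1 replicate 1 or 3 (adjusted p from 0.079 to 0.32). Axin1 was also not called with DESeq2 (adjusted p = 0.07) or with the correction for GC content and length (adjusted p = 0.11).

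Of 24 genes known to be induced by FOXO factors, Rictor included, 20 were tested, and 4 rose and 2 fell, which as a share of 30.0% is close to the background. The antioxidant genes Cat and Sod2 rose by 1.38- and 1.32-fold (edgeR quasi-likelihood adjusted p = 6.4e-13 and 1.2e-10) and the cell cycle inhibitors Ccng2 and Rbl2 by 1.28- and 1.24-fold. Txnip and Gadd45a fell to 0.891 and 0.766 times the CON level (adjusted p = 1.1e-08 and 1.4e-06 in the same test). The median log2 fold change of the list was 0.06.

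**Figure D4:**
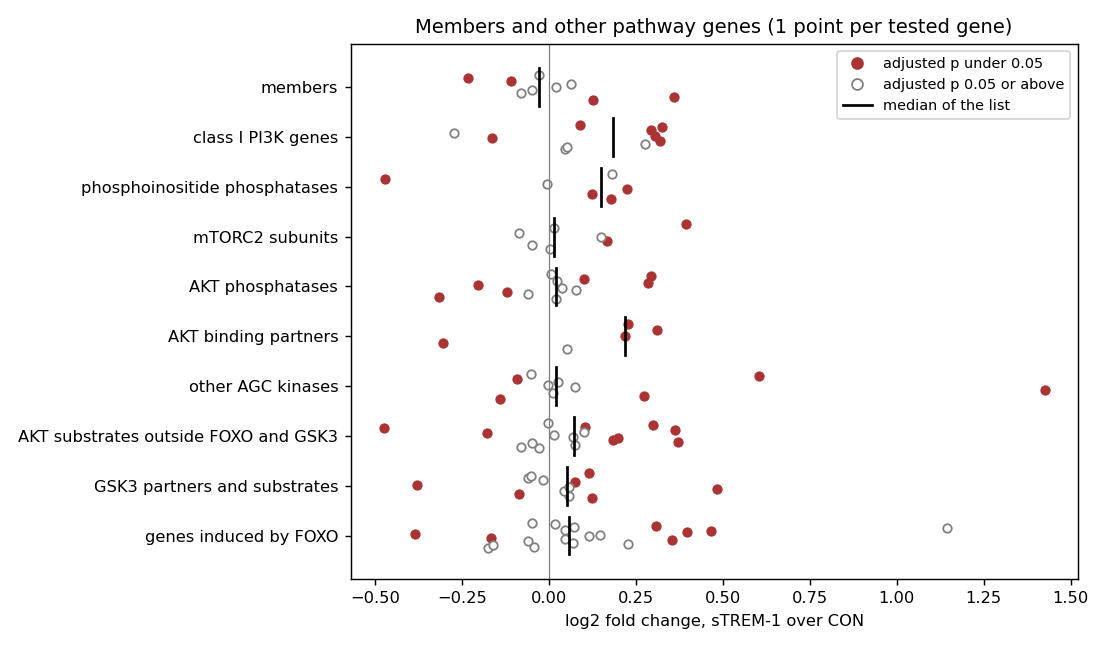
Log2 fold change after sTREM-1 (horizontal axis) of every tested gene of the members' list and of 9 further pathway lists, 1 point per gene, with black lines at the list medians. Filled red points passed an adjusted p under 0.05 in edgeR's quasi-likelihood test, and the point at 1.43 is Rps6kb2. The medians run from -0.03 for the members to 0.22 for the AKT binding partners.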

How the data were processed

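RNA-seq libraries were made by the authors from BV2 cells, 3 in the CON and 3 in the sTREM-1 group (the methods give n = 4). Raw, unnormalized counts by gene symbol were deposited by the authors. Their methods name FastQC, RSEM and edgeR, and the submitters' processing notes name HISAT2 2.0.4 and the human builds hg19 and GRCh38, while the symbols of the table are those of mouse genes. The annotation and the use of strand are not given in the sources used here, so reads of overlapping or near-identical genes may have been split.

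Low genes were removed by filterByExpr (10 counts), TMM factors were applied, and edgeR 4.0.16 (R 4.3.3) fitted a quasi-likelihood model of the group to all 6 libraries. A call needed an adjusted p under 0.05 (Benjamini-Hochberg) among the 14120 genes tested. Each SE is the log2 fold change divided by the square root of F. Ratios and sums were compared with exact permutation tests over libraries. Lengths, positions and coding sites came from GENCODE M21 (GRCm38), and promoters from RefSeq (GRCm38.p6). The procedure was tested on simulated data. In them more calls were false than the threshold on the adjusted p allows, and part of the 1.2- and 1.5-fold changes were missed. The draws were not repeated, and a far smaller share of genes was changed in them than was called here. How far their outcome carries over to the calls above was not tested. The alternatives were RLE and upper quartile scaling, 2 other filters, DESeq2 1.42.0, a replicate block, each library left out, 2 other call rules and, added after the data were seen, a loess correction for GC content and transcript length (span 0.3, 90.7% of tested genes with values).

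The members and lists were chosen with earlier results of these data known. Genes named from a list are at most 4 per direction with the smallest p-values among those called, and paralogs of members, Pik3r1, Mtor and Mapkap1 are named whatever their values. Outside this rule, Pik3ap1 is named as the adaptor in the list of class I PI3K genes. Some genes that this rule names are not reported here.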

Additional observations from a re-analysis of the deposited data

How the results depend on the processing

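The calls of Akt1, Akt2, Gsk3b and Foxo1 and their directions were kept in the 13 alternative fits, and Pdpk1 was called lower in 8 of them, so that 4 or 5 members were called. Leaving out each library in turn gave 4 to 5 called members. With at least a 1.2-fold change 1 member was called and 1517 genes in all, and the calls fell to 1 phosphoinositide phosphatase, 1 mTORC2 subunit, 3 AKT phosphatases, 2 AKT binding partners, 3 other AGC kinases, 4 other AKT substrates and 2 GSK3 partners and substrates. At an adjusted p under 0.01, 2 other AGC kinases and 3 GSK3 partners and substrates were called, the latter also 3 with upper quartile scaling. Leaving out each library gave 1 to 2 mTORC2 subunits and 2 to 5 other AGC kinases. The log2 fold change of Phlpp1 reversed with upper quartile scaling (-0.0002) and without CON replicate 3 (-0.0056, in a range up to 0.0433 over the libraries left out), and neither value was past the threshold. The balance of all called genes turned with upper quartile scaling, to 1977 higher and 2383 lower against 2324 and 1988. Stricter call rules lower counts by construction, and for the other changes the cause was not tested.

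Between libraries that share a number, the correlations of deviations from the group mean were -0.0178, -0.0335 and -0.0137 across genes, which gave no sign of pairing. With the replicate number as a block 5 members were called, with Pdpk1 at an adjusted p of 0.036, and the ratio of Akt2 to Akt1 differed by 0.23 on the log2 scale (exact sign-flip test, p = 0.25, the smallest possible). With the GC and length correction 5 members were called, and the log2 fold changes of Akt1, Akt2, Gsk3b and Foxo1 were 0.11, 0.33, -0.10 and -0.22. The lowest count of a member in any library was 1096, and how depth limits the calls was not tested.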

Other observations

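Over the 6 libraries, the tested genes outside the members whose log2 CPM correlated best with that of Akt1 were Hsd17b7, Dcaf11 and Slc16a10, with Pearson's r of 0.9975, 0.9962 and 0.996. Hsd17b7, which encodes an enzyme of sterol synthesis, had 13.2 CPM in the CON group and 18.5 CPM after sTREM-1. Dcaf11 had 27.4 and 32.3 CPM, and Slc16a10, the gene of an aromatic amino acid transporter, had 95.5 and 102 CPM. The libraries of these correlations share the difference between the groups, and the 3 genes were picked for their high correlation.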
